A study of Mus musculus with 11 samples.

Results

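The 10 genes Foxa1, Foxa2, Foxe1, Nkx2-1, Hhex, Pax1, Pax8, Pax9, Sox2 and Sox17 encode transcription factors of the pharyngeal endoderm and foregut. They were followed through every probe set of the array that is annotated with a single gene symbol, where that symbol is theirs. The rule found 14 probe sets of 9 genes among 45101 probe sets, of which those with 1 symbol named 18194 genes. Foxe1, a forkhead gene of thyroid and palate development, had no such probe set here and was not analysed. RNA came from mandibular arches of ICR mouse embryos, an outbred strain with no allele or treatment named, and was hybridised to 11 Affymetrix arrays in 6 groups. The medial piece, cut at the distal tip of the arch, was measured on 1 array at E9.7, 3 at E10.5, 2 at E11.5 and 1 at E14.5, and the lateral piece, which is the remainder of the arch, on 1 array at E9.7 and 3 at E10.5. The oldest sample carries a tongue label and comes from its anterior portion, so a difference of stage there is also one of dissection. Embryos were pooled, 40 per time point. Separate pools for the arrays of a group are not named, and p-values measure no more than the spread among the arrays, which may be technical.

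The pharyngeal endoderm is the epithelium that lines the embryonic pharynx. It forms the inner covering of the pharyngeal arches, the pouches between them and the floor from which the thyroid and part of the tongue epithelium derive. Foxa1 and Foxa2 are forkhead pioneer factors that open chromatin in endoderm and its derivatives, and Foxa2 also acts in notochord and floor plate. Sox2 marks the anterior foregut and, later, oral and lingual epithelium including taste papillae, while Sox17 is a determinant of definitive endoderm that is also made in arterial endothelium. Hhex, a homeobox factor of anterior endoderm, liver and thyroid, is likewise expressed in early endothelium. Nkx2-1 and Pax8 act together with Hhex and Foxe1 in the thyroid primordium. Pax1 and Pax9 are paired-box factors of the pharyngeal pouches, and Pax9 is also expressed in neural crest derived mesenchyme of the jaw and in tooth and tongue tissue.

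RefSeq promoter windows (GRCm38.p6, 250 bases before to 50 after the annotated start) were at hand for 8 of the 10 genes, in 10 windows. Those of Foxa1, Foxa2 and Sox2 are shown because these genes were higher in medial than in lateral tissue at E10.5, and that of Pax9 because its values lay the other way. Capitals mark matches on either strand to 5 short motifs. The forkhead core was searched as TGTTTAC. The SOX core was searched as AACAAT. The GC box was searched as GGGCGG. The CCAAT box was searched by its own 5 letters. The TATA box was searched as TATAAA. The capitals of different motifs do not overlap in these windows. For Foxa2, which has 3 annotated starts, the window of the most upstream start is given.
Foxa1, chr12:57546062-57546361, minus strand: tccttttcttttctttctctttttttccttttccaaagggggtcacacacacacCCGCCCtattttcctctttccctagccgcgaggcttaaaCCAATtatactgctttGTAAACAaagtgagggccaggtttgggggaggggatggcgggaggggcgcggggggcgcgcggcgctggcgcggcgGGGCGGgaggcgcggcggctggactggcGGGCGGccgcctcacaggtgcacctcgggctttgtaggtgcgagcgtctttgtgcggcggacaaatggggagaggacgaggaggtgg
Foxa2, chr2:148046920-148047219, minus strand: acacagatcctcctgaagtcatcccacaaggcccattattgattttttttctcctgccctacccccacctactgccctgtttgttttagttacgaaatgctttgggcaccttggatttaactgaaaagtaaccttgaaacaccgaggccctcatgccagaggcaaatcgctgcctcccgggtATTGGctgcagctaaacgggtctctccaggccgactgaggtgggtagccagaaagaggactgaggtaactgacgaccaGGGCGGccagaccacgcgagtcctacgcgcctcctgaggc
Sox2, chr3:34649745-34650044, plus strand: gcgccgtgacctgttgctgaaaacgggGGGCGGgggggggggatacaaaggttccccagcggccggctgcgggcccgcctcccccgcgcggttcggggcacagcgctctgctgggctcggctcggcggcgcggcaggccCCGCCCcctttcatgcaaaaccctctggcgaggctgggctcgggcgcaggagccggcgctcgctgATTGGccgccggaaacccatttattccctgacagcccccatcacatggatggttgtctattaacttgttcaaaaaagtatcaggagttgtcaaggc
Pax9, chr12:56695221-56695520, plus strand: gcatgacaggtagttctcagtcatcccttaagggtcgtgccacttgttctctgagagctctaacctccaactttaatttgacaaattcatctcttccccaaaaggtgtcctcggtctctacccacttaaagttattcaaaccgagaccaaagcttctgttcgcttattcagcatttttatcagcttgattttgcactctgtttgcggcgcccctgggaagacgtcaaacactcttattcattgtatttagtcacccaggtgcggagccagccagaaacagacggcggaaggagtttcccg

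The Foxa1 window held 1 forkhead match, 3 GC boxes and 1 CCAAT box. The Foxa2 window held 1 GC box and 1 CCAAT box, and the Sox2 window held 2 GC boxes and 1 CCAAT box. None of these letter strings was in the Pax9 window. Among 32851 promoter windows of the same length, 3.65% held the forkhead core, 10.72% the SOX core, 35.66% the GC box, 37.41% the CCAAT box and 13.62% the TATA box. The windows also differed in base composition. G and C made up 62.3% of the Foxa1 window, 54.3% of the Foxa2 window, 66.3% of the Sox2 window and 47.0% of the Pax9 window, against a median of 52.7% over all windows. These matches describe letters and do not show binding.

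All signals given here are deposited log2 values after quantile normalization, and all differences are differences of such values. As deposited, array medians ran from 5.20 to 5.73 except on 2 arrays of low signal, replicate 1 of medial E11.5 (2.47) and replicate 1 of medial E10.5 (2.37). Spiked-in control probe sets sorted the arrays into 4 groups, which the labels do not name as batches. At E10.5, group 1 took replicate 2 of the medial and replicate 1 of the lateral arrays, while group 3 took replicate 3 of the medial and replicates 2 and 3 of the lateral arrays. Group 1 also held the E9.7 arrays and the E11.5 array of normal signal, group 2 was the pair of low signal, and the E14.5 array stood alone. Testing was limited to the 11968 genes that reached the 50th percentile of all values, a level of 4.86, on 2 or more of the 8 arrays with replicates. Foxa1, Foxa2, Sox2, Sox17, Hhex and Pax9 passed this filter, and Nkx2-1, Pax1 and Pax8 did not. Dim signal was described by the 95th percentile, on each array, of 81 probe sets for olfactory, vomeronasal and trace amine receptors, called the receptor level. On every array 10 or 11 of 11 arch mesenchyme genes exceeded it. The count was 11 on the E14.5 tongue array too, and it does not tell the dissected pieces apart.

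**Figure D1:**
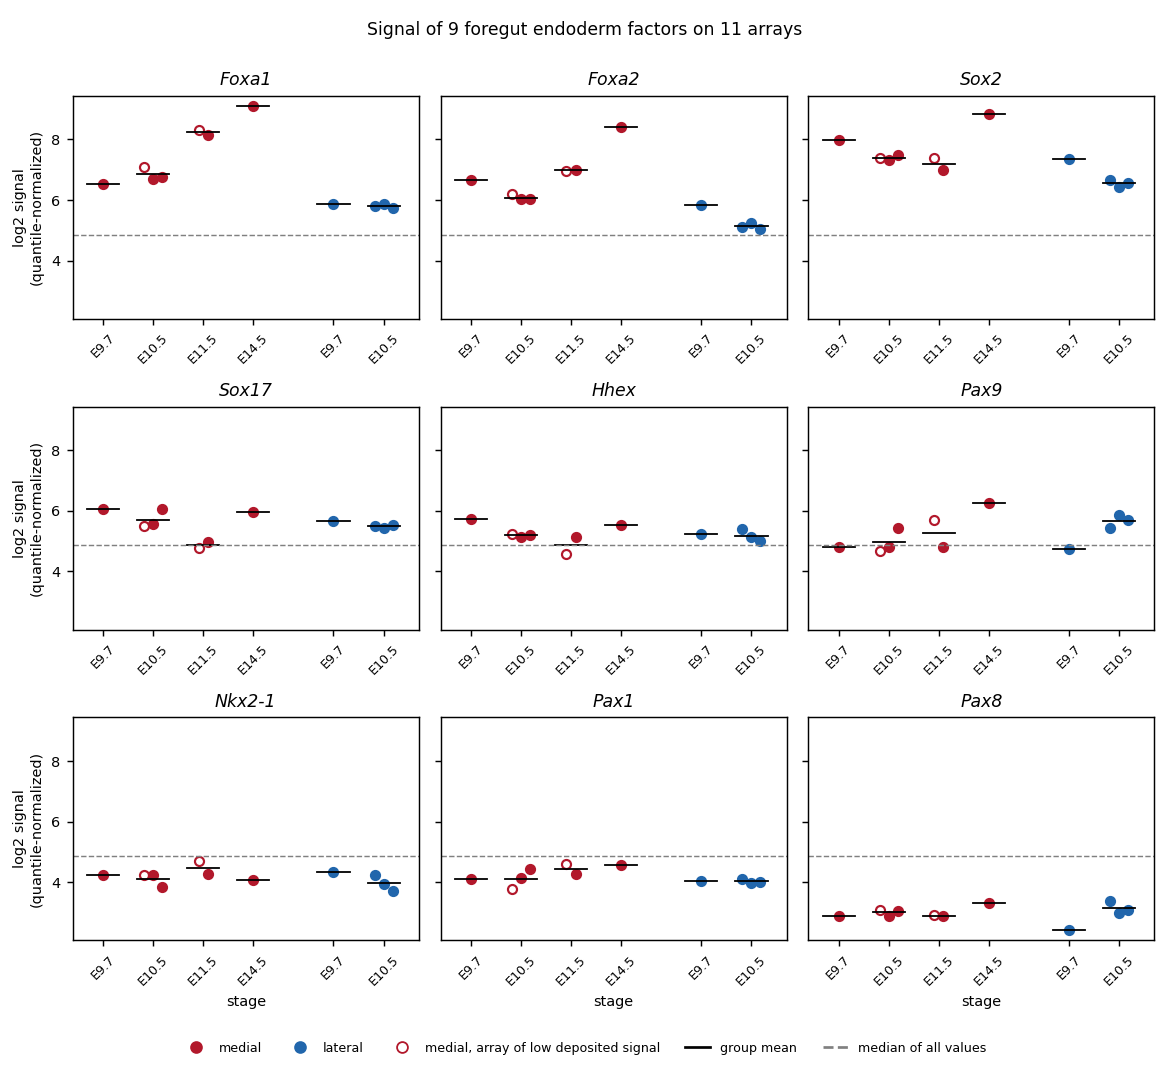
Log2 signal (vertical axis, quantile-normalized) of the brightest probe set of each of 9 genes on each of 11 arrays, by stage, with medial tissue in red left of lateral tissue in blue; bars are group means, open circles the arrays of low deposited signal, and the dashed line the filter level of 4.86. Foxa1, Foxa2 and Sox2 lay higher in medial than in lateral tissue at E10.5, Foxa1 and Foxa2 climbed in medial tissue after E10.5, and Nkx2-1, Pax1 and Pax8 stayed under the dashed line on all arrays.

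At E10.5 the medial piece carried more signal than the lateral piece for the endoderm pioneer factors Foxa1 and Foxa2 and for Sox2, by 2.08-, 1.93- and 1.80-fold. Sox17 and Hhex, which endothelium also expresses, did not pass the test, and Pax9 lay lower in medial tissue without passing it. Of the 9 measured genes, 6 were tested. Among these 6, 3 were higher and none was lower at a limma adjusted p under 0.05, where 4.63% of all tested genes passed, 2.82% higher and 1.80% lower. The comparison set 3 medial arrays against 3 lateral arrays and addressed the stated aim of the series, which was to compare expression between these pieces.

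Foxa1 read 7.09, 6.70 and 6.76 in medial tissue at E10.5, against 5.80, 5.87 and 5.72 in lateral tissue. All medial arrays lay above all lateral ones. The means were 6.85 ± 0.21 in medial and 5.80 ± 0.07 in lateral tissue (SD, n = 3 each), and the difference was 1.06 ± 0.13 (SE, limma adjusted p = 0.00187). Foxa2 read 6.20, 6.03 and 6.02 in medial tissue and 5.11, 5.24 and 5.05 in lateral tissue. Its groups were likewise apart, with each group's arrays within a narrow band. Foxa2 differed by 0.95 ± 0.11 (adjusted p = 0.00118), the means being 6.08 ± 0.10 in medial and 5.13 ± 0.09 in lateral tissue.

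Sox2 read 7.38, 7.33 and 7.48 in medial tissue, against 6.65, 6.44 and 6.56 in lateral tissue. The groups did not overlap, as was the case for 25.0% of all tested genes in either direction. Sox2 differed by 0.85 ± 0.13 (adjusted p = 0.00548). Among arrays of control-probe group 1, the medial minus lateral differences of Foxa1, Foxa2 and Sox2 were 0.90, 0.92 and 0.68. In group 3 they were 0.97, 0.87 and 0.98, so the sign was the same in both groups that held both tissues.

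Sox17 was measured by 2 probe sets. The brighter one read 5.49, 5.57 and 6.06 in medial tissue and 5.49, 5.44 and 5.53 in lateral tissue, with medial replicate 3 standing above the rest. Its difference was 0.22 ± 0.16 (adjusted p = 0.545), and it was 0.08 in control-probe group 1 and 0.57 in group 3. Hhex read 5.23, 5.15 and 5.20 in medial tissue and 5.41, 5.12 and 5.02 in lateral tissue. The lateral arrays of Hhex spanned the medial ones, and the difference was 0.01 ± 0.16 (adjusted p = 0.984).

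Pax9 had 3 probe sets, of which 1 exceeded the receptor level on all 11 arrays. The brightest, 1421247_at, read 4.67, 4.80 and 5.44 in medial tissue, against 5.42, 5.87 and 5.70 in lateral tissue. Medial replicate 3 overlapped the lateral range, and the difference was -0.69 ± 0.27 (adjusted p = 0.239). It had passed the filter mainly through the lateral arrays, and its medial mean of 4.97 ± 0.41 lay near the filter level. Probe set 1442229_at read 4.17, 3.82 and 3.15 in medial tissue and 4.88, 4.59 and 4.45 in lateral tissue. Probe set 1421246_at read 3.36, 3.48 and 3.15 in medial tissue and 4.46, 4.29 and 3.88 in lateral tissue. On these arrays 1442229_at exceeded the receptor level on 0 of 3 medial and 2 of 3 lateral arrays, and 1421246_at on 0 of 3 medial and 1 of 3 lateral arrays. As with Pax1, the size of a difference cannot be read from these dim values. In a limma fit of all 34958 probe sets with a single symbol and no filter, where 1.99% passed and 18.5% had groups that did not overlap, neither passed (adjusted p = 0.108 for 1442229_at and 0.0745 for 1421246_at). With the 3 probe sets averaged, 2 of them dim, Pax9 differed by -0.83 and passed (limma adjusted p = 0.00144), in a fit that called 5.33% of genes. It also passed with array weights (-0.87, adjusted p = 0.00757), but that fit called 23.7% of all genes.

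**Figure D2:**
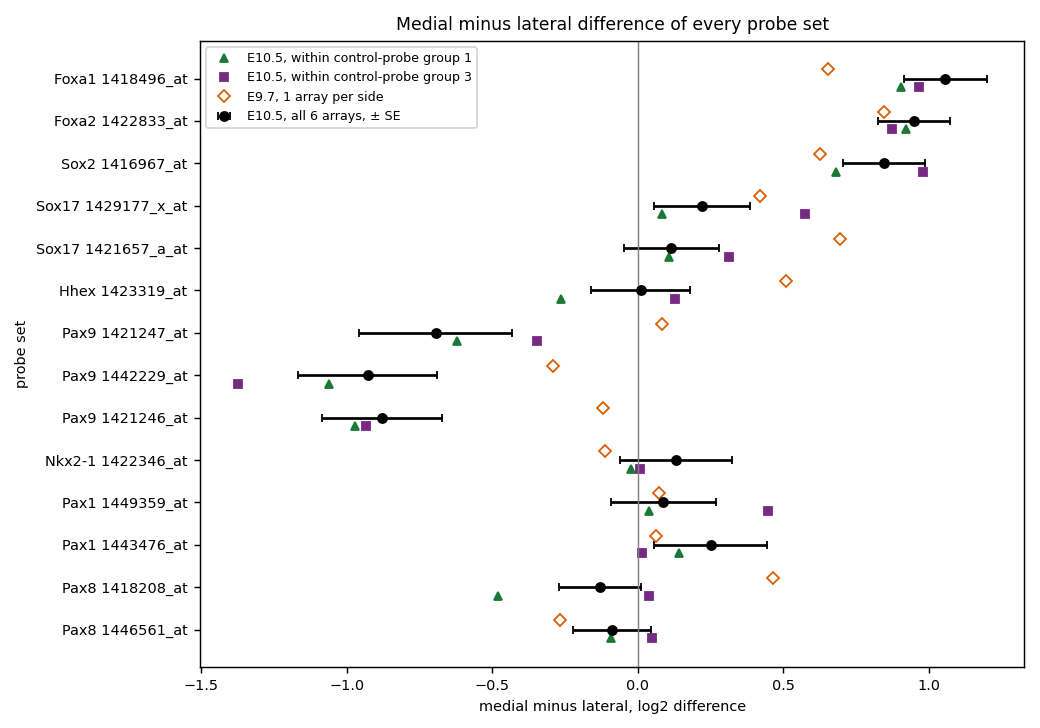
Medial minus lateral log2 difference (horizontal axis) of each of 14 probe sets of 9 genes (vertical axis). Black circles with bars are the E10.5 difference over 6 arrays ± SE from the fit of every probe set, green triangles and purple squares the E10.5 difference within control-probe groups 1 and 3, and open diamonds the E9.7 difference between 1 array per side. Foxa1, Foxa2 and Sox2 lay right of 0 by every measure, and the 3 Pax9 probe sets, 2 of them dim, lay left of 0 at E10.5.

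Nkx2-1, the thyroid and lung factor, read between 3.70 and 4.70 over the 11 arrays. It exceeded the 95th percentile of the receptor probe sets on 5 arrays. The brighter Pax1 probe set read between 3.76 and 4.61 and exceeded that percentile on 3 arrays, and the other on none. Neither Pax8 probe set did so on any array, with ranges of 2.41 to 3.37 and 2.34 to 2.83. These genes have only dim values here, and neither their absence nor a difference between the groups can be read from them. The 2 probe sets of Pax1 correlated weakly over the arrays (Pearson r = 0.18) and those of Pax8 negatively (r = -0.54).

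Medial tissue at E10.5 also carried more epithelial signal than lateral tissue. Of 17 tested epithelial markers, 10 were higher and 1 was lower, with a median of 0.77 against -0.01 over all genes. The lower one was Pitx1 (-1.80), a homeobox gene of oral ectoderm. Among the higher ones were the adhesion gene Epcam (0.70 ± 0.10, adjusted p = 0.00482) and the keratin gene Krt8 (1.35 ± 0.14, adjusted p = 0.000778). The summed signal of these markers on a linear scale was 4109 to 4553 in medial tissue and 2839 to 3350 in lateral tissue. Of 12 endothelial markers, 3 were higher (Cldn5, Emcn and Tek) and none was lower, with a median of 0.39, and their summed signal was 1901 to 2094 in medial and 1480 to 1550.2 in lateral tissue. Of 11 arch mesenchyme genes, 1 was higher and 3 were lower, with a median of -0.02. The part of the epithelial and endothelial signal in the Foxa1, Foxa2 and Sox2 differences was not tested. In bulk tissue, a larger number of such cells and more RNA per cell cannot be told apart.

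Other genes of the pharyngeal endoderm and its pouches were followed in a list of 18, of which 15 were measured and 12 were tested. At E10.5, 3 were higher in medial tissue: the LIM homeobox gene Isl1 (2.80 ± 0.17, adjusted p = 5.45e-05), the signal Shh (1.62 ± 0.14, adjusted p = 0.000315) and its receptor gene Ptch1 (1.10 ± 0.21, adjusted p = 0.0200). Isl1 and Ptch1 are also expressed in mesenchyme, and Shh in oral epithelium. The growth factor gene Fgf8 was lower (-1.93 ± 0.35, adjusted p = 0.0130), with 1 of its 3 medial arrays under the receptor level. The median of the 12 was 0.23. Shh read 9.03, 9.12 and 9.51 in medial tissue and 7.71, 7.53 and 7.55 in lateral tissue, with no overlap.

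Of 12 measured genes of the remaining gut endoderm, 5 to 8 exceeded the receptor level on each array, and Hnf4a, Ttr, Apoa1 and Sox7 did so on all 11. Of these 12, 4 were tested and none passed in either replicated comparison. Sox7, a Sox17 paralog also made in endothelium, read between 5.75 and 6.16 on the 10 arrays before E14.5 and 7.38 at E14.5. Foxa3, the paralog of Foxa1 and Foxa2 that acts in liver and gut, read between 2.52 and 3.48 and did not exceed the receptor level on any array. None of 6 measured thyroid genes passed the filter, and the thyroglobulin gene Tg read between 3.06 and 3.88. Of 10 measured genes of neural tube and brain, where Sox2 is also used, 2 were tested and none passed, and 4 or 5 exceeded the receptor level on each E10.5 array. Lhx2, which was not tested, read 2.18, 2.97 and 2.81 in medial and 5.02, 4.44 and 4.51 in lateral tissue at E10.5. These groups did not overlap, but Lhx2 exceeded the receptor level on only 2 of the 11 arrays, so the size of the difference cannot be read. Notochord genes were not analysed here, and the part of notochord or floor plate in the Foxa2 difference was not tested. Of 12 tested paralogs, the homeobox gene Hlx alone passed at E10.5 (-0.64 ± 0.15, adjusted p = 0.0455).

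One day later, the paths of these factors in medial tissue separated. Foxa1 and Foxa2 were higher at E11.5 than at E10.5, by 2.61- and 1.86-fold, while Sox17 was lower and Sox2, Hhex and Pax9 did not pass the test. Among the 6 tested genes of the 9 measured, 2 were higher and 1 was lower, where 6.92% of all tested genes passed, 4.32% higher and 2.60% lower. The comparison set 2 arrays against the same 3 medial E10.5 arrays that entered the comparison with lateral tissue.

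Foxa1 read 8.32 and 8.15 at E11.5, against 7.09, 6.70 and 6.76 at E10.5. Every E11.5 array lay above every E10.5 array. The means were 8.24 ± 0.12 (SD, n = 2) at E11.5 and 6.85 ± 0.21 (n = 3) at E10.5, a difference of 1.38 ± 0.15 (adjusted p = 0.000474). Foxa2 read 6.97 and 6.99 at E11.5 and 6.20, 6.03 and 6.02 at E10.5. The E11.5 arrays again lay above the others. The difference of Foxa2 was 0.90 ± 0.12 (adjusted p = 0.00183), but with each array centred on its median it was 0.83 and did not pass (adjusted p = 0.0799).

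Within control-probe group 1 the E11.5 minus E10.5 differences of Foxa1 and Foxa2 were 1.45 and 0.97. Between the 2 arrays of low signal they were 1.23 and 0.77. The increase thus had the same sign within each pair of like arrays.

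Sox17 read 4.78 and 4.98 at E11.5, against 5.49, 5.57 and 6.06 at E10.5, by its brighter probe set. The groups did not overlap, as held for 28.4% of all tested genes, and the difference was -0.83 ± 0.18 (adjusted p = 0.0226). The other Sox17 probe set read 4.44 and 4.85 at E11.5 and 5.26, 5.39 and 5.65 at E10.5, again without overlap, as held for 22.7% of probe sets. Its difference was -0.79 ± 0.18 and did not pass in the fit of every probe set (adjusted p = 0.0525, where 2.98% of probe sets passed). The call of the brighter probe set was lost when both arrays of low signal were left out (adjusted p = 0.0781), without E11.5 replicate 1 (-0.73, adjusted p = 0.136), without E11.5 replicate 2 (-0.93, adjusted p = 0.0616), with centred arrays (adjusted p = 0.144), with array weights (adjusted p = 0.0590) and in a fit of the compared groups alone (adjusted p = 0.0938). The sign was negative in all of these.

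Sox2 read 7.37 and 6.99 at E11.5 and 7.38, 7.33 and 7.48 at E10.5. The array of low signal at E11.5 lay within the E10.5 range and the other lay below it, and the difference was -0.22 ± 0.14 (adjusted p = 0.524). Hhex read 4.59 and 5.15 at E11.5 and 5.23, 5.15 and 5.20 at E10.5 (-0.32 ± 0.18, adjusted p = 0.430). The Hhex value of 4.59 came from the array of low signal, and the within-group differences were 0.00 in control-probe group 1 and -0.64 in group 2. Pax9 read 5.70 and 4.82 at E11.5 by its brightest probe set and 4.67, 4.80 and 5.44 at E10.5 (0.29 ± 0.30, adjusted p = 0.726). The arrays of Pax9 overlapped, and its higher E11.5 value again came from the array of low signal.

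**Figure D3:**
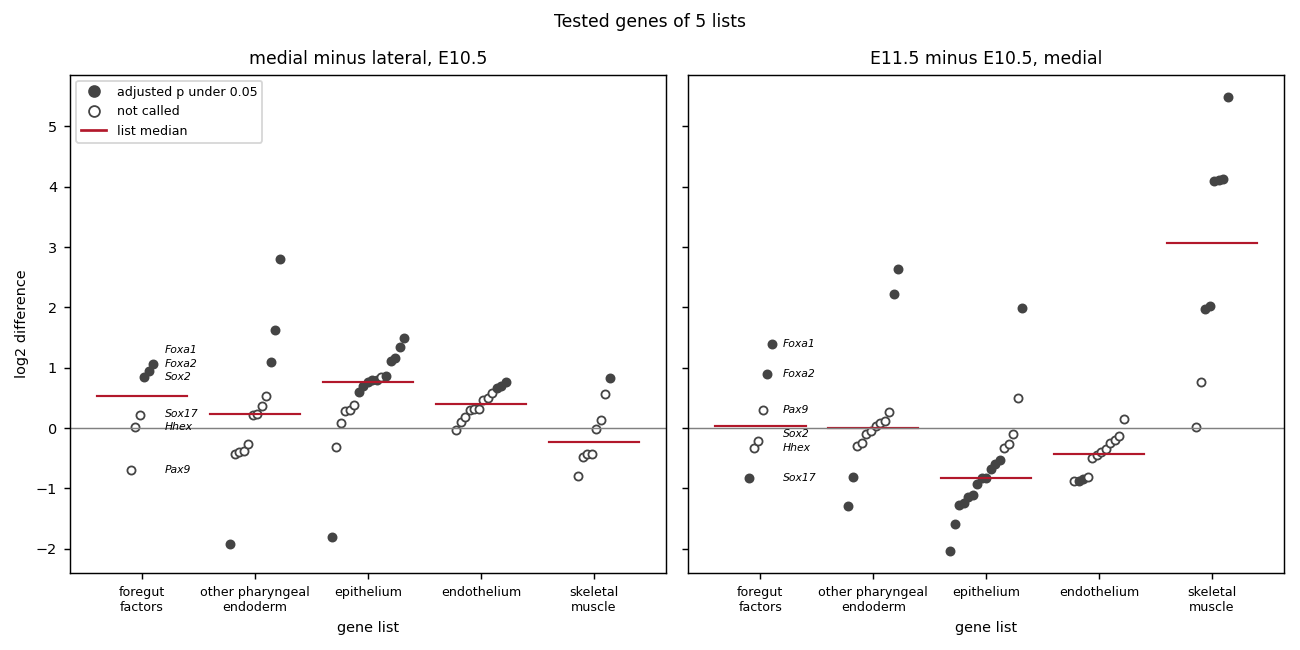
Log2 difference (vertical axis) of each tested gene of 5 lists (horizontal axis), medial minus lateral at E10.5 on the left and E11.5 minus E10.5 in medial tissue on the right; filled points passed at a limma adjusted p under 0.05 and red bars are list medians. At E10.5 Foxa1, Foxa2 and Sox2 lay among higher epithelial markers, and at E11.5 Foxa1 and Foxa2 lay above 0 while the median of the epithelial list lay at -0.83.

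Epithelial markers moved the other way from Foxa1 and Foxa2 over the same day. Of the 17 tested, 12 were lower at E11.5 and 1, the keratin gene Krt15, was higher, with a median of -0.83 against 0.00 over all genes. Epcam differed by -0.84 ± 0.12 (adjusted p = 0.00236) and Krt8 by -1.25 ± 0.15 (adjusted p = 0.00108). The summed linear signal of the list was 2411 to 2623 at E11.5 and 4109 to 4553 at E10.5. The number of lower markers was 9 without the arrays of low signal and 6 with centred arrays, with medians of -0.80 and -0.91. Of 12 endothelial markers, Cldn5 (-0.87 ± 0.12) and Tek (-0.84 ± 0.17) were lower and none was higher, with a median of -0.43. Their summed signal was 1358 to 1587 at E11.5 and 1901 to 2094 at E10.5. The parts of epithelial and of endothelial signal in the Sox17 difference were not tested. Of the 11 arch mesenchyme genes, 2 were higher and 5 were lower at E11.5, with a median of -0.77.

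Of the 12 tested pharyngeal endoderm genes, 2 were higher at E11.5, the T-box gene Tbx1 (2.22 ± 0.17, adjusted p = 0.000103) and the homeobox gene Nkx2-5 (2.64 ± 0.29, adjusted p = 0.000608), which was under the receptor level on 1 of 3 E10.5 arrays. Both are also expressed in muscle or heart precursors, and 6 of 8 tested skeletal muscle genes were higher in the same comparison. Eya1 (-1.29 ± 0.19, adjusted p = 0.00311), a transcriptional cofactor of the pouches, and Isl1 (-0.81 ± 0.19, adjusted p = 0.0368) were lower. Shh read 9.18 and 9.16 at E11.5 and 9.03, 9.12 and 9.51 at E10.5, inside the E10.5 range. The list thus had members on either side of 0, with a median of -0.01.

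Comparisons with E9.7 and E14.5 had 1 array on a side and were not tested. There a gene was counted if the single array differed by 2-fold or more from each array on the other side, in 1 direction. At E9.7, Foxa1 read 6.53 in medial and 5.88 in lateral tissue, Foxa2 6.67 in medial and 5.83 in lateral, and Sox2 7.99 in medial and 7.36 in lateral. The differences of 0.65, 0.85 and 0.63 had the sign seen at E10.5. Sox17 (0.42 and 0.69 by its 2 probe sets) and Hhex (0.51) also read higher in the medial array. Pax9 differed by 0.08 by its brightest probe set, and its other probe sets were under the receptor level on both arrays. No measured gene of the set reached 2-fold, where 1.76% of genes did, 1.09% higher and 0.667% lower. Most epithelial markers also read higher on the medial E9.7 array, with a median of 0.42 over 16 genes and Krt8, Krt18 and Krt14 past 2-fold. Pitx1 (-0.60), Krt19 (-0.20) and Grhl2 (-0.06) read lower there. The summed signal of the list was 5680 in medial and 3596 in lateral tissue. Of 12 endothelial markers all read higher medially, with a median of 0.74, Tek past 2-fold, and a summed signal of 2622 in medial and 1609 in lateral tissue. Among 10 measured genes of neural tube and brain, 5 reached the filter level on either array, with a median of -0.35. Lhx2 alone passed 2-fold, reading 3.26 on the medial array, under the receptor level, and 5.97 on the lateral one. Otx2 read 4.76 on the medial and 5.55 on the lateral array. The part of each of these in the E9.7 differences was not tested.

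Between E9.7 and E10.5, medial Foxa2 read 6.20, 6.03 and 6.02 at E10.5, against 6.67 at E9.7, and medial Sox2 read 7.38, 7.33 and 7.48 at E10.5, against 7.99. Both lay lower on every E10.5 array, as did medial Hhex (-0.54) and Sox17 (-0.36 by its brighter probe set). The share of all genes lying to 1 side of the lone E9.7 array was not computed. In medial tissue the median difference was -0.50 over 12 endothelial markers and -0.08 over 17 epithelial markers. The part of either in these differences was not tested. In lateral tissue the differences from E9.7 were -0.69 for Foxa2 and -0.81 for Sox2, and they were -0.59 for both genes in medial tissue. None of the measured genes reached 2-fold in medial tissue, where 1.01% of genes did (0.647% higher, 0.367% lower), nor in lateral tissue, where 1.36% did (0.958% higher, 0.401% lower). Lateral Pax9 read 5.42, 5.87 and 5.70 at E10.5, against 4.74 at E9.7, by its brightest probe set. This was a difference of 0.93 in lateral tissue, against 0.15 in medial tissue, and the difference between tissues was not tested. The other Pax9 probe sets were under the receptor level at E9.7 in both tissues. The E10.5 arrays are those of the medial and lateral comparison.

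At E14.5 the tongue sample had the highest reading of the 11 arrays for Foxa1 (9.11), Foxa2 (8.42), Sox2 (8.85) and the brightest Pax9 probe set (6.24). Sox2 and Foxa2 lay more than 2-fold above both E11.5 arrays, by mean differences of 1.67 and 1.44, where 14.8% of genes lay 2-fold apart, 11.1% higher and 3.67% lower. Foxa1 differed by 0.87, Sox17 by 1.07 and Hhex by 0.67. The E14.5 array read 5.95 for Sox17 and 5.54 for Hhex, within the range of readings at E9.7 and E10.5. The brightest Pax9 probe set read 6.24 at E14.5, against 5.70 and 4.82 at E11.5, a 1.98-fold difference of means. Probe set 1442229_at read 7.26 at E14.5, against 3.87 and 3.99 at E11.5, both under the receptor level. Set against that level on the E11.5 arrays, it was at least 7.48-fold higher. Probe set 1421246_at was under the receptor level at both stages. In the same comparison 11 of 17 epithelial markers and 8 of 9 skeletal muscle genes lay at least 2-fold higher, and Shh read 8.12 at E14.5, against 9.18 and 9.16 at E11.5.

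**Figure D4:**
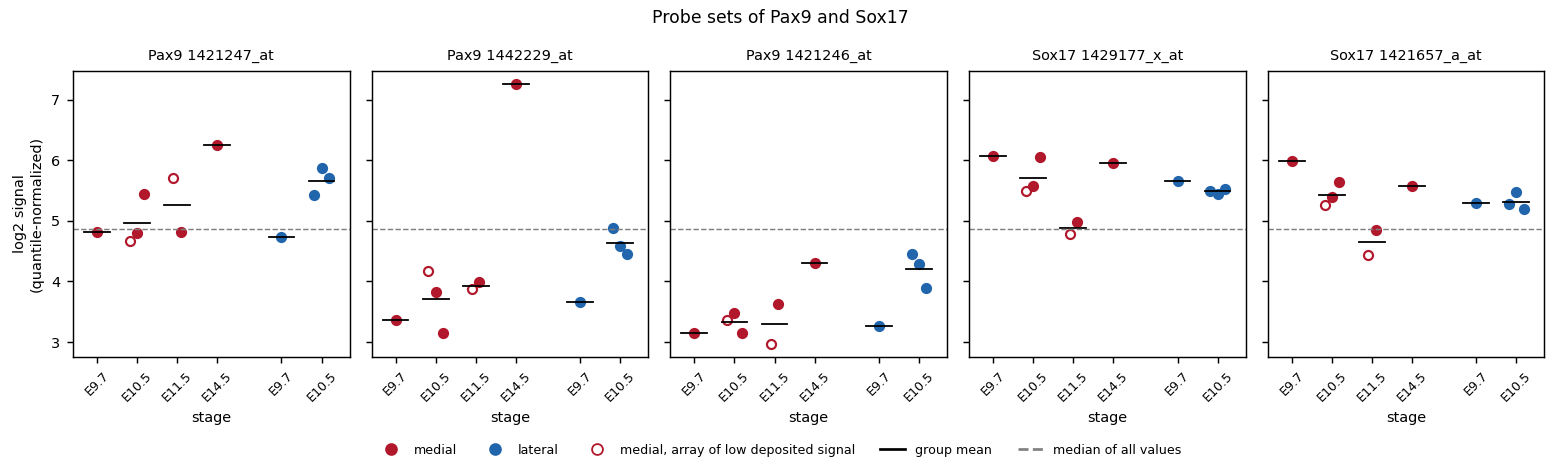
Log2 signal (vertical axis, quantile-normalized) of the 3 probe sets of Pax9 and the 2 of Sox17 on 11 arrays by stage, with medial tissue in red left of lateral tissue in blue; bars are group means, open circles the arrays of low deposited signal, and the dashed line the filter level. The Sox17 probe sets followed each other, and the Pax9 probe set 1442229_at read 7.26 at E14.5 and between 3.15 and 4.88 on the other arrays, most of them under the receptor level.

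Ordered by group mean, Foxa1 was highest in medial tissue at E14.5, followed by medial E11.5, E10.5 and E9.7 and then lateral E9.7 and E10.5. No neighbouring ranges overlapped in this order, though the E9.7 and E14.5 groups are lone arrays with no spread. Foxa2 had the same order except that medial E9.7 stood above medial E10.5. For Sox2 the order was medial E14.5, medial E9.7, medial E10.5, lateral E9.7, medial E11.5 and lateral E10.5, and lateral E9.7 overlapped both of its neighbours. Sox17 was highest at medial E9.7 and lowest at medial E11.5, and the medial E11.5 arrays lay below all others by its brighter probe set. Hhex overlapped between lateral E9.7, medial E10.5, lateral E10.5 and medial E11.5. By its brightest probe set, Pax9 was highest at medial E14.5 and next at lateral E10.5, and in the order lateral E10.5, medial E11.5, medial E10.5, medial E9.7 each neighbouring pair overlapped.

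As a description over the 11 arrays, which share groups and scaling, Foxa1 and Foxa2 correlated with Pearson r = 0.93, Foxa2 and Sox2 with r = 0.86, and Hhex and Sox17 with r = 0.77. Foxa1 and Sox17 had r = -0.24, and the 2 Sox17 probe sets r = 0.94. The Pax9 probe sets, 2 of them dim, correlated with r between 0.54 and 0.74. Among tested genes whose SD over the arrays was at least 0.5, the profiles most like Foxa1 were Hdac5, Postn and Lin7a (each r = 0.98). Those most like Foxa2 were Ddc (0.98), Stbd1 (0.96) and Trim25 (0.96). The profiles most like Sox2 were S100a6 (0.94), the desmosomal gene Dsc2 (0.91) and Jdp2 (0.91), and those most like Sox17 were the epithelial protease inhibitor gene Spint1 (0.93), Rnf128 (0.91) and the tight junction gene Marveld2 (0.91). Hhex was most like Plekha7 (0.89), Pir (0.87) and the endothelial cadherin gene Cdh5 (0.84). Pax9 was most like Nfatc2 (0.87), 2610316D01Rik (0.85) and Tob1 (0.83).

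Several of these genes are neighbours in the mouse genome (order from RefSeq, GRCm38.p6). Nkx2-1, Nkx2-9, Pax9 and Foxa1 lie in this order on chromosome 12, with Slc25a21, Prps1l3 and Mipol1 between Pax9 and Foxa1, and Pax1 and Foxa2 are adjacent on chromosome 2. Foxa1 was higher in medial tissue at E10.5, but its tested neighbours Mipol1 (0.12, adjusted p = 0.815) and Prps1l3 (-0.02, adjusted p = 0.960) did not pass, nor did Nkx2-9 (-0.39, adjusted p = 0.480). At E11.5 Mipol1 differed by -0.36 (adjusted p = 0.452), against 1.38 for Foxa1. Beside Foxa2, Pax1 was under the filter, and the thrombomodulin gene Thbd differed by -0.36 (adjusted p = 0.311) between the tissues at E10.5 and was higher at E11.5 by 1.03 (adjusted p = 0.00873). No tested gene within 2 places of Sox2, Sox17 or Hhex passed in either comparison.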

How the data were processed

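Total RNA of pooled embryos was labelled and hybridised to Affymetrix arrays of 45101 probe sets. Per the submitters' processing notes, the authors made the deposited log2 values with Affymetrix Expression Console 1.1, and the algorithm is not given in the sources used here. The log2 base was inferred from the range of the deposited values, 0.0887 to 14.5. Because 2 arrays lay on a lower scale, the deposited log2 values were quantile-normalized across the 11 arrays.

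Probe sets were named from the platform annotation, matched to RefSeq gene names (GRCm38.p6) by Entrez ID for 34754 probe sets. Of all probe sets, 34958 had 1 symbol, 932 had several and 9211 had none here. A gene was its probe set with the highest mean. Probes of different genes are not comparable in level, so a summed signal weighs the brightest probe sets most and was compared only between arrays. For comparisons with replicates, limma 3.58.1 (R 4.3.3) estimated 6 group means over all 11 arrays, leaving 5 residual degrees of freedom, and p-values had Benjamini-Hochberg adjustment over 11968 genes. The procedure was also run on simulated data with known changes and independent normal noise. Those data held no arrays of low signal and no control-probe groups, so the effect of these features was not checked there. Precision is limited by how few arrays there are.

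The members, gene lists and rules for named genes (list genes that passed, up to 4 per list; the 3 most alike genes; 2 neighbours on each side) were chosen with earlier results of these data known. Further list genes (Epcam, Krt8, Krt15, Pitx1, Krt14, Krt18, Krt19, Grhl2, Tek, Tg, Foxa3, Hnf4a, Ttr, Apoa1, Sox7, Lhx2 and Otx2) were named after their values were seen. Control-probe groups came from hierarchical clustering of 45 spiked-in control probe sets. Promoter motifs were searched with Python 3.11.15. Alternatives covered the scaling, the filter, the summary of probe sets, the variance model and the threshold, the replicate number as a block, control-probe groups as a fixed effect and leaving out arrays. Whether replicate numbers pair the samples was not tested. The deviations of same-numbered medial and lateral E10.5 arrays correlated with r = 0.13, -0.29 and 0.48, the last within control-probe group 3. Those of differently numbered arrays correlated with r from -0.56 to 0.50, the highest within control-probe group 1.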

Additional observations from a re-analysis of the deposited data

Results flagged for a closer look

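Foxa1 differed in sign between the tissues from E9.7 to E10.5. In medial tissue it read 7.09, 6.70 and 6.76 at E10.5, against 6.53 at E9.7, a mean difference of 0.3244, so all 3 arrays lay above the E9.7 array. In lateral tissue it read 5.80, 5.87 and 5.72 at E10.5, against 5.88 at E9.7, a mean difference of -0.0802, so all 3 arrays lay below it. The difference between the tissues was not tested, each E9.7 group is a lone array, and the lateral difference is about the size of the SD of the lateral E10.5 arrays (0.07). The share of all genes with such opposite signs was not computed. Even the brighter Pax8 probe set, under the receptor level on every array, lay to 1 side of the lone E9.7 array in each tissue.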

How the results depend on the processing

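The 3 calls between medial and lateral tissue at E10.5 (Foxa1, Foxa2 and Sox2) held under every alternative run except the values as deposited, where 0 genes passed; there 0.0153% of all genes passed, and the differences were -0.0579 for Foxa1, -0.20 for Foxa2, -0.23 for Sox2, -0.93 for Sox17 and -1.14 for Hhex. By construction, those medial means include an array whose median lies about 3 log2 units below the others. The Hhex difference, near 0, was also negative with centred arrays (-0.0141) and when the arrays of low signal were omitted (-0.0108). Leaving out 1 array at a time it lay between -0.0739 and 0.1235, below 0 without medial replicate 1, lateral replicate 2 or lateral replicate 3. For E11.5 against E10.5 the count was 0 as deposited and 1 (Foxa1) with centred arrays, against 3; centring moved the median of all genes at E10.5 to 0.11. Pax9 at E11.5 reversed as deposited (-0.37), without the arrays of low signal (-0.30) and without E11.5 replicate 1 (-0.15), and leaving out 1 array gave -0.15 to 0.7344. Leaving out 1 array gave 3 calls each time at E10.5 and 2 to 3 at E11.5, where the lost gene was Sox17, and 3 each time for E14.5 against E11.5. As deposited, 1 gene (Pax9) lay 2-fold apart between lateral E10.5 and E9.7, against 0, and 5 lay 2-fold higher at E14.5 than at E11.5, as did 4 with centred arrays, against 2. The replicate block left the count at 3 in both tested comparisons and changed no call. At E11.5 endothelial markers lower numbered 5 with control-probe group as a fixed effect and 1 with centred arrays, against 2. Those higher in medial tissue at E10.5 numbered 5 and 1 in the same fits, against 3. Over the alternatives, the share of all genes that passed ran from 0.0153% (as deposited) to 23.7% (array weights) between the tissues, against 4.63%, and from 0.00767% (as deposited) to 18.2% (control-probe group as a fixed effect) at E11.5, against 6.92%. Beyond the scale of the low arrays, the cause of these changes was not tested. Signals under the filter level limit Nkx2-1, Pax1 and Pax8.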
